A study of Homo sapiens with 8 samples.

Results

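The peaks described here are those of 2 leukemic fusion proteins, AML1-ETO and ETO2-GLIS2, at the RUNX genes RUNX1, RUNX2 and RUNX3 and at CBFB, the gene for their common partner. A peak was a member if its summit lay in the gene body or within 20 kb of it, which gave 537 of 235023 peaks in the 4 deposited lists. ChIP-seq sequences the DNA that an antibody brings down with a protein. Here anti-HA beads precipitated the fusion proteins, each with an HA tag at its N-terminus, from U937, a human monocytic cell line. Each protein was carried by 1 single-cell clone, #4 for AML1-ETO and #14 for ETO2-GLIS2, made by retroviral transduction with a vector that responds to doxycycline. All cells received doxycycline at 5 µg/ml, for 12 or 48 h. Every fusion protein and time had 1 ChIP library with a peak list and 1 input library. For the 12 h samples the treatment text names 48 h, whereas their titles and treatment tags give 12 h, which was used. No difference between lists therefore has a replicate check, and clone and fusion protein cannot be told apart.

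RUNX proteins bind DNA through the Runt domain, which recognizes TGTGGT or TGCGGT, and CBFB binds that domain and strengthens its grip on DNA without touching the bases itself. RUNX1 (AML1) is needed to form blood stem cells, RUNX2 is known for bone formation, and RUNX3 for T cells and sensory neurons. Each RUNX gene has a distal and a proximal promoter. AML1-ETO keeps the Runt domain of RUNX1, whereas ETO2-GLIS2 carries the zinc fingers of GLIS2 as its DNA-binding part.

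The RUNX genes share a short sequence at their distal starts. An 18-base sequence with a pair of Runt matches spaced 8 bp apart was found at the distal start of all 3 RUNX genes, and these were the only 3 exact copies in the GRCh37 chromosomes. It is shown in the direction of each gene, with the Runt matches in capitals.
RUNX1, chr21:36421562-36421579, minus strand, 64 bp past the distal start: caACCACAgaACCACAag
RUNX2, chr6:45296081-45296098, plus strand, 29 bp past the distal start: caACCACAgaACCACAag
RUNX3, chr1:25291617-25291634, minus strand, 131 bp before the distal start: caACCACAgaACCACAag
Of 35116 RefSeq promoters of 300 bases (250 before to 50 after the start), 19.6% held 1 or more Runt matches and 0.248% held a pair within 12 bp. Counted from the starts used here, the RUNX1 copy lies past the end of such a window.

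The copies at RUNX1 and RUNX3 lay in a peak of all 4 lists, and the copy at RUNX2 lay in a peak of none. At RUNX1 the nearest AML1-ETO summits were 100 bp (12 h) and 55 bp (48 h) from the middle of the copy. At RUNX3 they were 18 and 12 bp away. The ETO2-GLIS2 summits were 70 bp (12 h) and 843 bp (48 h) away at RUNX1, and 257 and 29 bp away at RUNX3. At RUNX2 the nearest summit of any list was 7827 bp away (AML1-ETO, 48 h), and the other lists had none within 48185 bp. The shorter run from the first to the last base of the pair occurred 90 times in the genome. AML1-ETO peaks held 12 of these copies at 12 h and 17 at 48 h, and ETO2-GLIS2 peaks held 3 and 4. These counts include the copies at RUNX1 and RUNX3. Of the 10 copies within 1 kb of a protein-coding start, 2 lay in a peak of each list, namely those at RUNX1 and RUNX3. The AML1-ETO peaks covered 1.64% (12 h) and 3.10% (48 h) of the chromosomes, and those of ETO2-GLIS2 0.557% and 0.649%. A preference of either protein for the copies was not tested.

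The sequences around the strongest summits show where Runt matches were and were not present. For RUNX2 and RUNX1 the runs below come from the strongest AML1-ETO peak at 48 h. At RUNX1 and CBFB bases of UTRs were left out, which left no run to show for CBFB, and none remained for RUNX3 either. All are on the plus strand, with Runt matches on either strand in capitals.
RUNX2 proximal promoter, chr6:45390461-45390661: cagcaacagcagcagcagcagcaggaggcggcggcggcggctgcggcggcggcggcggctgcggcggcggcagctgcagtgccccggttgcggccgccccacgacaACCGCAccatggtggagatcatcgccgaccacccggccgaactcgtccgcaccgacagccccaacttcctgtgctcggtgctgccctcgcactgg
RUNX1 proximal promoter, chr21:36261906-36262034: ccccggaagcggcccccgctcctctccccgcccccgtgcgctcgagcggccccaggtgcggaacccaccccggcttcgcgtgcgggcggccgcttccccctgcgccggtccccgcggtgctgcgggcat
The RUNX2 run had 1 Runt match and lies in the coding sequence just past the proximal start, whereas the RUNX1 run, at 81.4% G and C, had 0. Further runs, chosen after their values had been seen, include a RUNX1 intron with 2 matches. At the RUNX3 distal promoter, also shown, the pair is read from the other strand as TGTGGT. Of the AML1-ETO 48 h runs looked at but not shown, that downstream of RUNX2 had 1 match. Those in RUNX1 intron 6, at another place in RUNX1 intron 2, in RUNX2 intron 2 and upstream of RUNX3 had 0.
RUNX1 intron 5, chr21:36237953-36238153: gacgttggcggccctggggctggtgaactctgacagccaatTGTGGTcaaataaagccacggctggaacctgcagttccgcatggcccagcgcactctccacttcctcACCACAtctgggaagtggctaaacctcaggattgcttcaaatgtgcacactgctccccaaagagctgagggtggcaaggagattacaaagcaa
RUNX1 intron 2, 22.4 kb past the distal start, chr21:36399099-36399299: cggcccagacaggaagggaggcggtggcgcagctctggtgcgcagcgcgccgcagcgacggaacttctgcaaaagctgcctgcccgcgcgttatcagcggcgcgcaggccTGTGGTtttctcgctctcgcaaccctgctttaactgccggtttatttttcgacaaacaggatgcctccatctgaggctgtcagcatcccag
RUNX3 distal promoter, chr1:25291513-25291713: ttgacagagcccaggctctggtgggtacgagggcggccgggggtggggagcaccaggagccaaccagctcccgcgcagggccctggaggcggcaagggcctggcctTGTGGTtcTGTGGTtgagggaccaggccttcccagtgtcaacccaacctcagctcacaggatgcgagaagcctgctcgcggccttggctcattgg
The strongest ETO2-GLIS2 summits at RUNX3 and RUNX1 at 48 h are shown as well. Both had 0 Runt matches and 0 matches to TGGGGGG, a short form of the GLIS site. The strongest at RUNX2, not shown, had 0 Runt matches, and that at CBFB, also not shown, had 1. The runs shown are a selection and do not compare the proteins.
RUNX3 proximal promoter, chr1:25256820-25257020: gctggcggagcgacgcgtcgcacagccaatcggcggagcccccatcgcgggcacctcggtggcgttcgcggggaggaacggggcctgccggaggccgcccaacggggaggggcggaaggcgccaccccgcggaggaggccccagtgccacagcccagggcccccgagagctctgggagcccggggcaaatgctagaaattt
RUNX1 intron 6, chr21:36207949-36208149: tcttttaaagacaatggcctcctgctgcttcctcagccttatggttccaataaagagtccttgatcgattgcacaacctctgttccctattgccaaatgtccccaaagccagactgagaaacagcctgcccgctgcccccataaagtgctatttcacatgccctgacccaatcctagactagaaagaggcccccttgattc

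To see how densely the genes were occupied, summits were counted per 100 kb of gene body and flanks. AML1-ETO had 159 peaks at the 4 genes at 12 h and 260 at 48 h, and ETO2-GLIS2 had 58 and 60. The whole lists held 70833, 105769, 28325 and 30096 peaks. By the study's sequencing statistics, whose values were not used here, both ETO2-GLIS2 ChIP libraries had fewer reads than those of AML1-ETO, and the later ETO2-GLIS2 library had fewer than the earlier one. No count was adjusted for depth, and the part of depth in these counts was not tested. For AML1-ETO, RUNX1 had 100 (12 h) and 152 (48 h), and for ETO2-GLIS2 it had 39 and 30. RUNX2 had 32 and 55 AML1-ETO peaks, with 6 and 9 of ETO2-GLIS2. RUNX3 had 21 and 45 AML1-ETO peaks, with 11 and 19 of ETO2-GLIS2. CBFB had 6 and 8 AML1-ETO peaks, with 2 of ETO2-GLIS2 at each time.

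By length RUNX3 was the densest. It held 42.6 AML1-ETO and 18 ETO2-GLIS2 peaks per 100 kb at 48 h, against a median of 5.75 and 1.59 over 20163 protein-coding genes and 3.42 and 0.972 over the chromosomes. Of all protein-coding genes, 1.29% were denser than RUNX3 in the AML1-ETO 48 h list and 3.28% in the ETO2-GLIS2 48 h list. RUNX1 had 12.1 and 2.39, RUNX2 had 14.6 and 2.39, and CBFB had 7.14 and 1.78. The RUNX1 record is 1216868 bp long because some annotated transcripts start far upstream. Over the span of its transcripts with a consensus coding sequence (CCDS) and 20 kb to either side, RUNX1 had 36.1 AML1-ETO and 8.29 ETO2-GLIS2 peaks per 100 kb at 48 h, and RUNX3 had 42.7 and 18. In this span RUNX1 was the densest at 12 h in both lists, with 23.9 AML1-ETO peaks per 100 kb against 19.9 at RUNX3, and 11.3 ETO2-GLIS2 peaks against 10.4. The order of RUNX1 and RUNX3 thus changed with the time and with the span counted.

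RUNX1 is a minus-strand gene at chr21:36160098-37376965 (hg19). Its peaks were denser between the gene end and the distal start than beyond it. From the proximal start to the gene end, 101 kb, AML1-ETO had 40 peaks at 12 h and 50 at 48 h, and ETO2-GLIS2 had 21 and 15. The 161 kb between the starts held 32 and 57 AML1-ETO peaks, and 11 and 9 ETO2-GLIS2 peaks. In the 875 kb beyond 100 kb upstream of the distal start, AML1-ETO had 27 and 41 peaks, or 3.08 and 4.68 per 100 kb. Over the chromosomes it had 2.29 and 3.42. ETO2-GLIS2 had 4 there at each time, or 0.457 per 100 kb, against 0.915 and 0.972 over the chromosomes.

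The proximal promoter of RUNX1 carried its strongest AML1-ETO peak at 48 h. That peak spanned chr21:36254366-36262959, 8594 bp, with a fold enrichment over input of 76.3 and rank 175 by q-value in its list. At 12 h the peak ranked 405, with a fold of 52.6 and a width of 6152 bp. The ETO2-GLIS2 peaks there ranked 1767 (fold 27.3, 1792 bp) at 12 h and 1714 (fold 33.2, 2625 bp) at 48 h. The summits lay 1.02 kb upstream of the proximal CCDS start for AML1-ETO at 48 h and 1.16 kb upstream for ETO2-GLIS2, 81 and 61 bp from the start of another annotated transcript. All 4 lists thus had a summit in the same stretch, placed in the top 0.572% and 0.165% of the AML1-ETO lists (12 and 48 h) and in the top 6.24% and 5.70% of the ETO2-GLIS2 lists.

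The distal promoter of RUNX1 differed more between the proteins. AML1-ETO covered it with 1 peak of 8517 bp at 12 h (rank 526, fold 48.6) and of 10323 bp at 48 h (rank 1257, fold 40.4), the widest of all 260 member peaks of that list. ETO2-GLIS2 had narrow peaks within 1 kb of the start, 438 bp wide with a fold of 6.15 at 12 h (rank 11196) and 1093 bp wide with a fold of 7.18 at 48 h (rank 11005). A further ETO2-GLIS2 peak within 1 kb at 12 h ranked 10455, and the best one of the region, 2093 bp upstream at 12 h and 2106 bp at 48 h, ranked 5949 and 7747. Both AML1-ETO peaks were thus broad and high in their list, and the narrow ETO2-GLIS2 peaks stood at 39.5% (12 h) and 36.6% (48 h) of theirs, counted from the strongest.

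Inside the introns of RUNX1 each protein had its own strongest place. The best AML1-ETO peak at 12 h, rank 70 with a fold of 70.5, was in intron 5, 22.9 kb past the proximal start, and ranked 377 with a fold of 47.3 at 48 h. Of all protein-coding genes, 102 had a better ranked peak in the 12 h list. ETO2-GLIS2 peaks there ranked 2521 at 12 h and 2610 at 48 h. This is the stretch with 2 Runt matches shown above. The nearest was centred 11 bp from the AML1-ETO 48 h summit and 21 bp from that of the ETO2-GLIS2 48 h peak.

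The best ETO2-GLIS2 peak of RUNX1 lay in intron 6, where the sequence shown had no Runt match. It ranked 410 with a fold of 67.5 at 12 h and 1040 with a fold of 45.1 at 48 h, 52.9 kb past the proximal start and within 1 kb of the start of ENSG00000286153, another annotated gene. AML1-ETO peaks there ranked 420 (12 h) and 735 (48 h), also with 0 Runt matches in the 200 bp around their summits. In intron 2, 19.9 kb upstream of the proximal start, AML1-ETO ranked 144 at 12 h with a fold of 58.9, and ETO2-GLIS2 ranked 570 at 12 h and 1488 at 48 h. Also in intron 2, 22.4 kb past the distal start, AML1-ETO at 48 h ranked 651 with a fold of 43.4, and ETO2-GLIS2 ranked 8960 at 12 h and 18559 at 48 h. The first of these intron 2 places was high in the lists of both proteins, and the second was high for AML1-ETO alone.

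Other RUNX1 peaks within 1 kb of an annotated start were weak. Besides those at the promoters, the AML1-ETO 12 h list had 3, at exon 6 and in intron 7, with ranks from 30094 to 63799. At 48 h there were 5, at exon 6 and in introns 5, 6 and 7, with ranks from 28663 to 99994. Another AML1-ETO 12 h peak, also of rank 63799, lay at the far upstream start, next to LINC01436. ETO2-GLIS2 had 1 at 12 h in intron 7, of rank 25511. Around the proximal promoter it had 3 further peaks at 12 h, of ranks 10434, 19984 and 27353, and 1 at 48 h, of rank 18559.

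**Figure D1:**
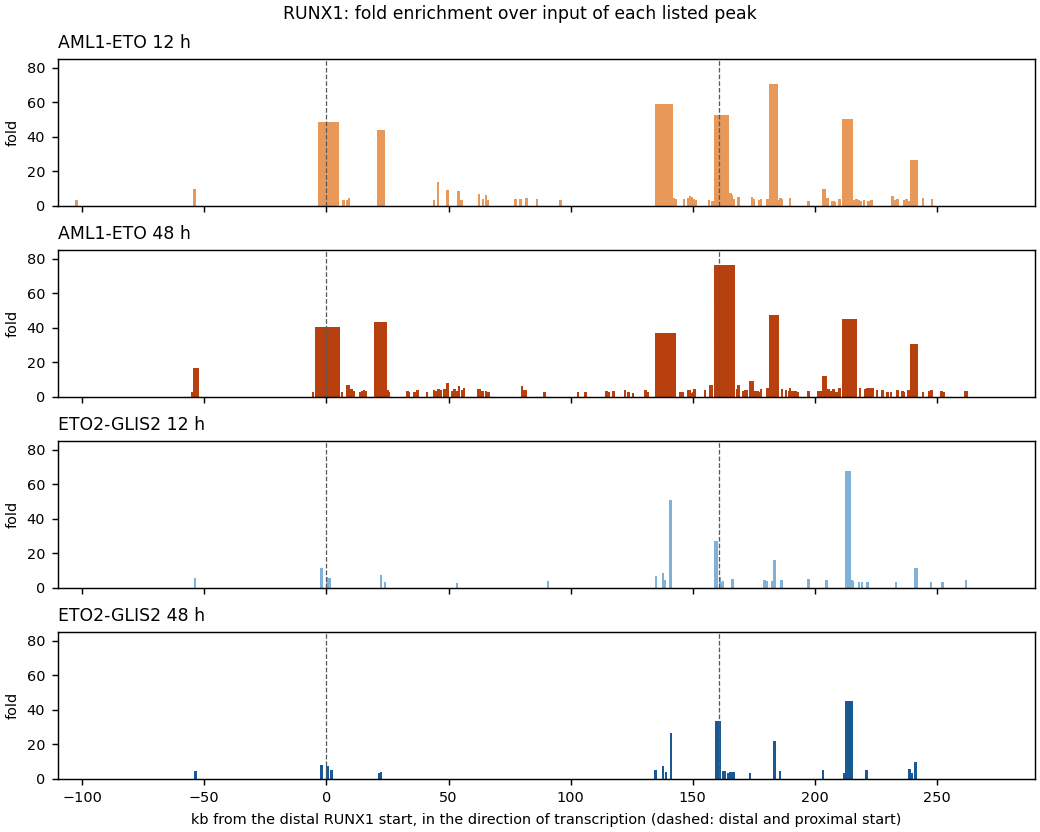
Fold enrichment over input (y axis) of the RUNX1 peaks near and inside the CCDS span (those farther upstream are not drawn) against the distance in kb from the distal start (x axis, in the direction of transcription), with 1 panel for each list, bars as wide as the peaks or at least 1 kb, and dashed lines at the distal and proximal starts. The distal promoter has broad AML1-ETO bars at 48.6 and 40.4 and ETO2-GLIS2 bars of at most 11.5, whereas the bar 53.6 kb past the proximal start is tall in all 4 panels.

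To ask whether reads of the introduced AML1-ETO sequence could have given peaks, the outlines of peaks were set against coding exons, because a cDNA holds exons and no introns. A peak had the outline of an exon if it covered at least 80% of the exon and at least 50% of the peak lay in it. RUNX1 had 1 such peak among 100 in the AML1-ETO list at 12 h and 1 among 152 at 48 h. It had 0 among its 39 (12 h) and 30 (48 h) ETO2-GLIS2 peaks. Over all genes, 0.891% (12 h) and 0.629% (48 h) of AML1-ETO peaks and 1.02% and 1.34% of ETO2-GLIS2 peaks had the outline of a coding exon. The RUNX1 counts for AML1-ETO were close to these shares, so peaks of this kind are not particular to RUNX1. The ETO2-GLIS2 peaks at RUNX1 were too few for a count of 0 to differ from them.

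Both RUNX1 peaks of this kind lay over coding exon 5 of the main transcript (chr21:36252854-36253010, 157 bp). The 12 h peak, chr21:36252847-36253024, was 178 bp wide with a fold of 4.86 and rank 26953, and 88.2% of it lay in the exon. The 48 h peak, chr21:36252834-36253024, was 191 bp wide with a fold of 7.03 and rank 19443, and 82.2% of it lay in the exon. The edges of the 12 h peak were 7 and 14 bp outside the exon, and those of the 48 h peak 20 and 14 bp. Exon 6 (105 bp) also lay under an AML1-ETO peak with its summit in the exon at both times, 270 and 389 bp wide, of which 38.9% and 27.0% lay in the exon. These did not meet the rule. Closest to it from outside was an ETO2-GLIS2 12 h peak of 551 bp over exon 4 (rank 19984, fold 3.81), which covered all of that exon and lay 46.1% in it, or 48.8% in a longer form of the exon. Exons 3, 8 and 9 had no peak in any list. Exons 2, 4 and 7 lay under far wider AML1-ETO peaks. Which RUNX1 exons the construct holds is not given in the sources used here, and an exon outside it could give no construct reads. Of the other genes in the fusions, RUNX1T1 had 1 exon-outlined peak in the AML1-ETO 48 h list and CBFA2T3 had 1 in the ETO2-GLIS2 48 h list. Whether these peaks hold reads of the introduced sequence was not tested, and every count that uses them changed by 1 peak at most when the RUNX1 ones were left out.

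RUNX2 is a plus-strand gene at chr6:45295894-45632086 (hg19), and its proximal promoter held the best ranked AML1-ETO peak of all 4 genes at 48 h. That peak spanned chr6:45386868-45393415, with a fold of 77.8 and rank 154, and its 12 h counterpart ranked 218 with a fold of 62.3. ETO2-GLIS2 peaks there ranked 2476 (fold 23.1) at 12 h and 1190 (fold 41.5) at 48 h. ENSG00000271857 also starts there. The AML1-ETO summits were 298 and 339 bp past the proximal start.

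The best ETO2-GLIS2 peak of RUNX2 was elsewhere, in intron 2 at the start of SUPT3H, a gene for a histone acetyltransferase complex subunit that overlaps RUNX2 on the other strand. It ranked 302 with a fold of 72.8 at 12 h and 218 with a fold of 85.2 at 48 h. AML1-ETO peaks there ranked 1468 (fold 32.2) and 761 (fold 49.2). The peak is listed under RUNX2 by position, and which of the overlapping genes it concerns cannot be told apart. Its next ETO2-GLIS2 peak, in intron 6, ranked 6736 and 9745. Downstream of the gene, 255 kb past the proximal start, AML1-ETO had a peak of rank 2718 (fold 21) at 12 h and 2416 (fold 33.9) at 48 h, and ETO2-GLIS2 had none.

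RUNX3 is a minus-strand gene at chr1:25226002-25291612 (hg19), and its proximal promoter gave ETO2-GLIS2 its strongest peaks at the family. They ranked 85 with a fold of 102 at 12 h and 53 with a fold of 130 at 48 h, and 150 and 96 protein-coding genes had a better ranked peak. The AML1-ETO peaks there ranked 679 (fold 44.4) and 421 (fold 62.0), and the 48 h one was 7678 bp wide. As a share of the list, these peaks stood at 0.30% and 0.176% for ETO2-GLIS2 and at 0.959% and 0.398% for AML1-ETO, counted from the strongest. The ETO2-GLIS2 summits lay 153 bp upstream of the proximal start at both times, in peaks of 2595 and 4342 bp with 0 Runt matches.

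The distal RUNX3 promoter stood at 1.19% and 1.47% of the AML1-ETO lists and at 35.5% and 34.6% of the ETO2-GLIS2 lists. AML1-ETO peaks ranked 845 (fold 39.3) at 12 h and 1560 (fold 34.7) at 48 h, and ETO2-GLIS2 peaks ranked 10064 (fold 7.12) and 10415 (fold 6.13). The 18-base copy lay in all of them. The next AML1-ETO peak, 13.7 kb upstream of the distal start at 48 h, ranked 6247 with a fold of 17.2, and 15457 with a fold of 5.70 at 12 h. ETO2-GLIS2 ranked 5382 and 6082 there, and its next peak, in the intron 9.72 kb upstream of the proximal start at 48 h, ranked 5690 at 12 h and 7121 at 48 h. The summed width of the AML1-ETO 48 h peaks was 42.4% of the RUNX3 gene body and flanks, and peaks of that list covered 3.10% of the chromosomes.

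CBFB is a plus-strand gene at chr16:67062887-67134961 (hg19), and its promoter was high in the AML1-ETO lists and low in those of ETO2-GLIS2. The AML1-ETO peaks ranked 743 (fold 42.8) at 12 h and 1072 (fold 46.9) at 48 h, with summits 9 and 65 bp past the start, and held 0 Runt matches. The ETO2-GLIS2 peaks there ranked 20301 (fold 4.07) and 21677 (fold 4.31). These stood at 71.7% and 72.0% of the ETO2-GLIS2 lists, counted from the strongest. Of protein-coding genes, 58.0% and 56.1% had a better ranked ETO2-GLIS2 peak in or near them than CBFB.

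The remaining best ranked CBFB peaks were few. Near the start of PHAF1, downstream of CBFB, AML1-ETO ranked 7500 (fold 13.1) and 8815 (fold 15.1), and ETO2-GLIS2 had a peak at 48 h, of rank 15969. The next AML1-ETO peaks ranked 30094 (12 h, also downstream) and 44473 (48 h, intron 5), and the best ETO2-GLIS2 peak at 12 h, 11.2 kb upstream, ranked 18171.

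**Figure D2:**
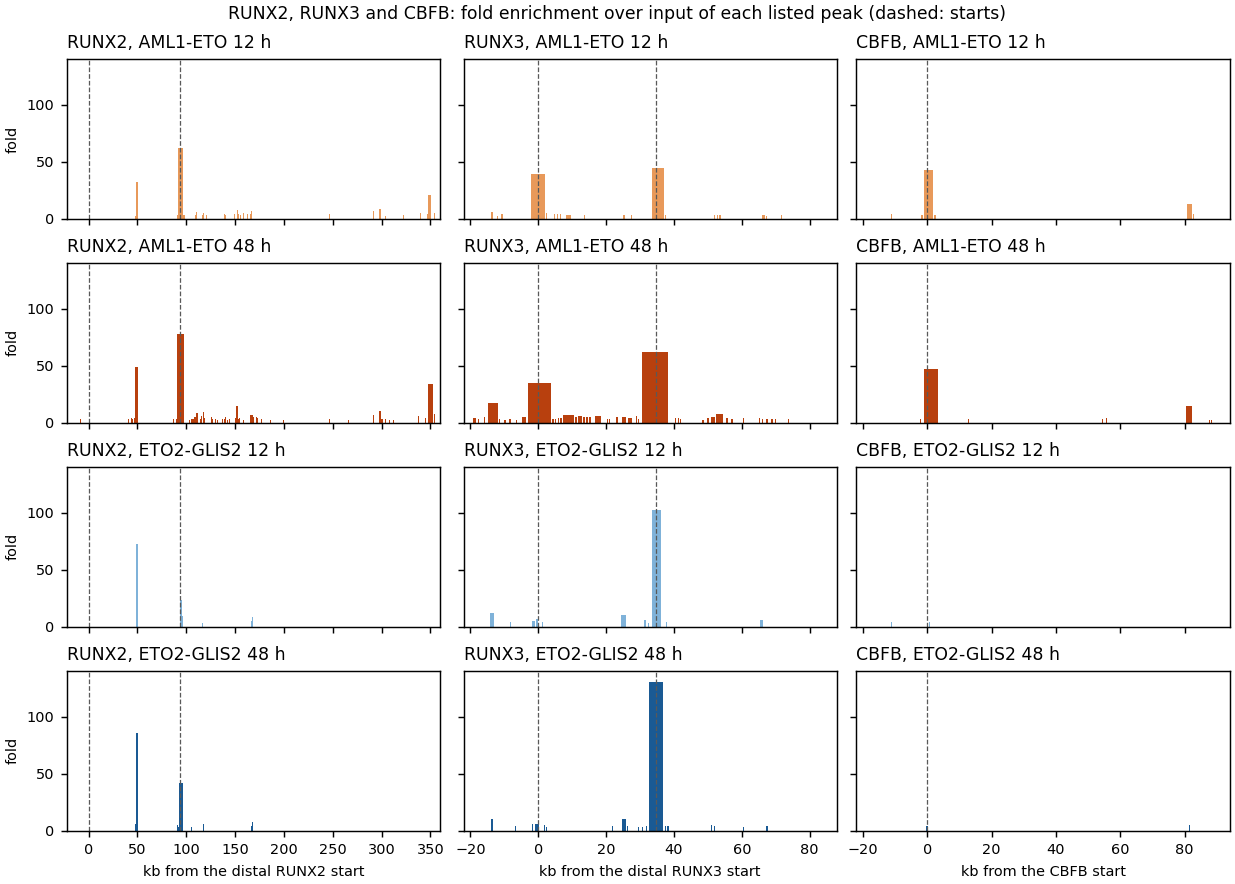
Fold enrichment over input (y axis, the same in all panels) of each peak at RUNX2, RUNX3 and CBFB against its distance in kb from the distal or only start (x axis), with rows for the 4 lists, bars as wide as the peaks or wider where these would be too thin to see, and dashed lines at the starts. The tallest bar is that of ETO2-GLIS2 at 48 h at the proximal RUNX3 start, at 130, and the distal RUNX2 start has none in any list.

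All 4 genes had a summit within 1 kb of an annotated start in all 4 lists. Among 20163 protein-coding genes this held for 54% in the AML1-ETO 12 h list, 59.8% in the AML1-ETO 48 h list, 42.8% in the ETO2-GLIS2 12 h list and 45.7% in the ETO2-GLIS2 48 h list. With 4 genes this is a description of these loci.

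To ask how far both proteins met at these genes, peaks were called shared when they had at least 1 bp in common. For ETO2-GLIS2 at 48 h, 56 of 60 were shared with AML1-ETO, 93.3% (95% interval 83.8 to 98.2), against 83.4% of the whole list. At 12 h it was 47 of 58, 81.0% (68.6 to 90.1), against 74.5%. In the other direction 31 of 260 were shared with ETO2-GLIS2 at 48 h, 11.9% (8.25 to 16.5), against 17.8%, and 32 of 159 at 12 h, 20.1% (14.2 to 27.2), against 26.2%. Intervals are exact Clopper-Pearson intervals and cover counting error only, since neighbouring peaks are not independent. Most ETO2-GLIS2 peaks at the genes thus had an AML1-ETO partner, and most AML1-ETO peaks had none. The whole lists, of which those of AML1-ETO are the longer, showed the same pattern, so it is not particular to these genes. At 48 h both intervals left out the share of their list, and at 12 h both included it. Whether the members differ from the lists was not tested.

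Sharing differed between strong and weak AML1-ETO peaks, in the members as in the whole lists. Of the 21 AML1-ETO member peaks among the strongest 10% of the 48 h list, 18 were shared with ETO2-GLIS2, 85.7% (63.7 to 97.0), and 84.0% of all peaks in that strongest 10% did. Of the 120 in the weaker 50%, 1 did, 0.833% (0.0211 to 4.56), against 2.75%. At 12 h it was 13 of 17 strong peaks, 76.5% (50.1 to 93.2), against 85.8%, and 9 of 83 weak ones, 10.8% (5.08 to 19.6), against 6.41%. The 3 strong AML1-ETO peaks without an ETO2-GLIS2 peak were the one downstream of RUNX2, one in RUNX2 intron 5 (rank 8760) and one far upstream of the distal RUNX1 start, in an intron of the longest transcripts (rank 6568). The 4 ETO2-GLIS2 peaks without an AML1-ETO peak at 48 h were in or near RUNX1 and RUNX3, with ranks from 14073 to 27379 and folds from 3.71 to 5.83. At 12 h there were 11, at the same 2 genes, with ranks from 9465 to 26861.

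The threshold for overlap mattered for these shares. Summits within 200 bp of each other were found for 20% of ETO2-GLIS2 and 4.62% of AML1-ETO peaks at 48 h. With each list limited to its 28325 strongest peaks the shares were 82.5% and 41.4%.

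Between the times, 97 of 260 AML1-ETO peaks at 48 h overlapped a 12 h peak, 37.3% (31.4 to 43.5), against 36.8% of the list, and 122 of 159 at 12 h overlapped a 48 h peak, 76.7% (69.4 to 83.1), against 73.9%. For ETO2-GLIS2 it was 24 of 60 at 48 h, 40.0% (27.6 to 53.5), against 54.6%, and 31 of 58 at 12 h, 53.4% (39.9 to 66.7), against 60.6%. Every member peak in the strongest 10% of its list had a peak of the same protein at the other time, with 17 (12 h) and 21 (48 h) such AML1-ETO peaks and 7 at each time of ETO2-GLIS2. In the whole lists at least 99.6% of that strongest 10% did, so this holds for the lists and is not particular to these genes. In the weaker 50% at 48 h it was 17.5% (11.2 to 25.5) of 120 AML1-ETO peaks, against 11.6% of the list, and 15.4% (5.86 to 30.5) of 39 ETO2-GLIS2 peaks, against 22.8%.

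Joining all overlapping peaks of the 4 lists gave 293 regions, of which 196 were in 1 list, 60 in 2, 16 in 3 and 21 in all 4. Both proteins had a peak in 45 regions, AML1-ETO alone in 242 and ETO2-GLIS2 alone in 6. RUNX1 held 12 of the 21 regions in all lists, RUNX2 4, RUNX3 4 and CBFB 1. The AML1-ETO peak was wider than the ETO2-GLIS2 peak in 21 of the 21 at 48 h and in 16 at 12 h, comparing the strongest peak of each. It was wider at 48 h than at 12 h in 21 of 21 for AML1-ETO and in 12 of 21 for ETO2-GLIS2. Widths were not adjusted for read depth, which differed between the libraries, and its part in them was not tested.

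Within most of these 21 regions the summits of 1 protein lay close together at both times. The median distance between the 12 and 48 h summits was 30 bp for AML1-ETO and 21 bp for ETO2-GLIS2, with 17 and 15 of 21 within 200 bp. The largest distances were 1310 and 1230 bp. Between the proteins the median distance was 228 bp at 12 h and 221 bp at 48 h, with 10 of 21 within 200 bp at each time. The regions were chosen for holding a peak in every list, so these distances are descriptions.

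**Figure D3:**
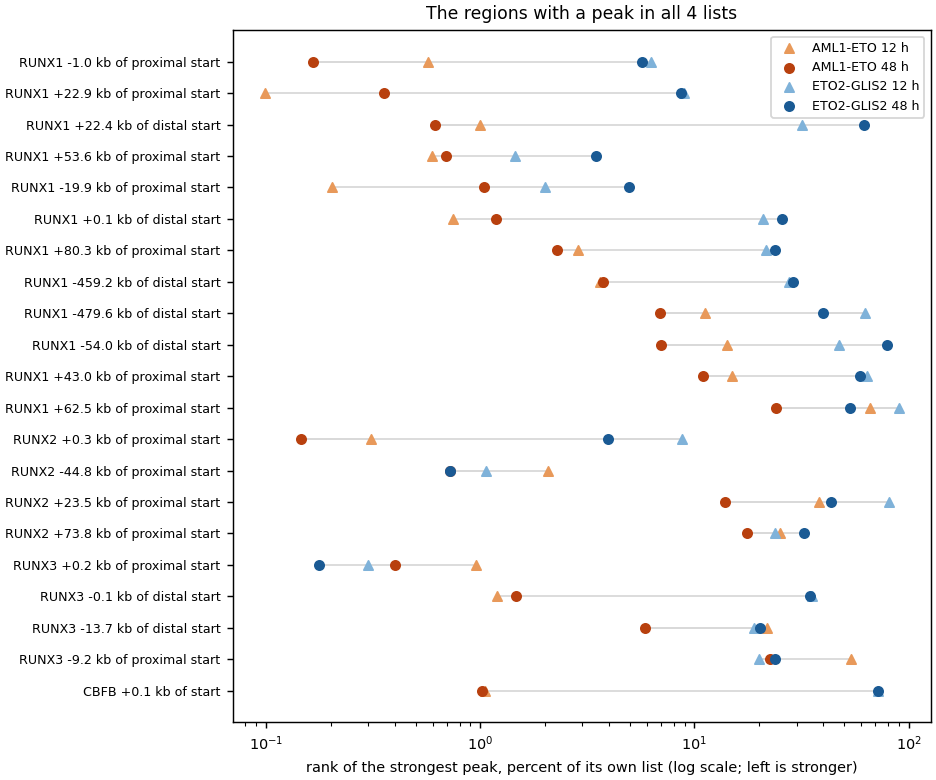
Rank of the strongest peak in percent of its own list (x axis, log scale, left is stronger) for the 21 regions with a peak in all 4 lists (y axis, named by gene and by the distance of the AML1-ETO 48 h summit to the nearest start), with triangles for 12 h and circles for 48 h. The proximal RUNX3 promoter is the region where both ETO2-GLIS2 points, 0.30% and 0.176%, lie to the left of both AML1-ETO points, and CBFB has the ETO2-GLIS2 points at 71.7% and 72.0%.

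Runt matches were counted in the 200 bp around each summit. At 48 h 77 of 260 AML1-ETO member summits had one, 29.6% (24.1 to 35.6), against 14.4% of 520 windows 1 kb to either side and 24.9% of all summits of the list. At 12 h it was 47 of 159, 29.6% (22.6 to 37.3), with 13.5% in the flanks and 26.7% over the list. ETO2-GLIS2 summits had one in 14 of 58 at 12 h, 24.1% (13.9 to 37.2), and in 9 of 60 at 48 h, 15.0% (7.10 to 26.6), with 19.0% and 15.8% in the flanks and 23.2% and 21.9% over the lists. The AML1-ETO intervals lay above the share of their flanks, and the ETO2-GLIS2 intervals, which rest on fewer peaks, included it. These intervals cover counting error only, and a difference between the proteins was not tested. In the whole AML1-ETO 12 h list 17.1% of flank windows had a match, against 26.7% of summits. An excess over flanks was thus present in that list and is not particular to these genes. All 4 intervals included the share of their own list. By gene, 39 of 152 AML1-ETO summits at RUNX1 had a match at 48 h, 20 of 55 at RUNX2, 13 of 45 at RUNX3 and 5 of 8 at CBFB, where 8 of 16 flank windows had one too.

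Matches to other consensus sequences were few. TGGGGGG was within the window of 7 of 260 AML1-ETO summits at 48 h, 2.69% (1.09 to 5.47), and of 5 of 60 ETO2-GLIS2 summits, 8.33% (2.76 to 18.4), against 3.83% and 7.89% of the whole lists. The E-box CAGCTG was near 29 of 260, 11.2% (7.60 to 15.6), and 6 of 60, 10.0% (3.76 to 20.5), against 13.7% and 16.8%. A match is a description of letters and not a site.

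The genes of RUNX cofactors and partners were looked up as a list of 25, from the TLE corepressors and histone deacetylases to kinases and transcription factors that act with RUNX1. A summit within 1 kb of a start was found for 20 of 25 in the AML1-ETO 12 h list, 80% (59.3 to 93.2), for 21 at 48 h, 84.0% (63.9 to 95.5), and for 20 and 21 in the ETO2-GLIS2 lists. The shares over all protein-coding genes were those given above. HDAC1, a histone deacetylase that corepressors recruit, ranked 23 and 17 in the ETO2-GLIS2 lists and 9123 and 9482 in those of AML1-ETO. SPI1, the gene for the myeloid factor PU.1, ranked 450 and 762 for ETO2-GLIS2 and had no AML1-ETO summit within 1 kb of a start. The study reports both proteins at similar levels at an upstream regulatory element of SPI1, and much weaker AML1-ETO binding at its promoters. Only windows at starts were looked up here, so AML1-ETO is not shown to be absent from SPI1. CEBPA, the gene for the granulocytic factor C/EBPα, ranked 1128 and 659 for ETO2-GLIS2 and 7028 and 2673 for AML1-ETO. CCND3, the gene for a D-type cyclin, ranked 724 and 1015, and 20803 and 12966. PRMT6 and YAP1 had no such summit in any list. These 4 genes were picked by the better of their ETO2-GLIS2 ranks, although SIN3A (804) and CDK6 (971) were ahead of CCND3 at 48 h, so their order between the proteins is a description.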

How the data were processed

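Peaks were analysed for the 4 anti-HA ChIP libraries. Reads had been aligned by the authors to hg19 with Bowtie2 2.2.9, and peaks called against input with MACS2 2.1.1.20160309, in 1 list for each ChIP library; SAMtools 1.7 is also named in the submitters' processing notes. Caller settings and removal of duplicate reads are not given in the sources used here. The deposited lists hold a score, a fold enrichment (a linear ratio over background), −log10 p and −log10 q values, and the summit as an offset. A rank is a peak's place by −log10 q in its list, with 1 the strongest and equal values sharing a place.

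Genes came from GENCODE 44 lifted to GRCh37 and sequences from GRCh37, the assembly of hg19, with Python 3.11.15, pandas 2.3.3 and scipy 1.17.1. RefSeq promoter sequences of a later assembly were used for motif shares. Peaks named are those within 1 kb of an annotated start, the 3 best ranked for each gene and list, and the RUNX1 peaks with an exon outline. Cofactors named are 4 with a summit in both ETO2-GLIS2 lists, by the better of their ranks there, and those in no list. SIN3A, CDK6, TLE4 and TLE1 are named beside them to show the limits of that choice. No test between lists was made, since there was 1 library for each condition. Overlap and motif counting were tested on simulated data. The genes and lists were chosen with earlier results of these data known. Alternatives were stricter q-values, other spans, joined peaks, equal list lengths, other overlap and motif windows, and exon-outlined peaks left out.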

Additional observations from a re-analysis of the deposited data

Results flagged for a closer look

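The number of RUNX1 peaks moved in opposite directions for the proteins between 12 and 48 h. AML1-ETO had 100 peaks at 12 h and 152 at 48 h, whereas ETO2-GLIS2 had 39 at 12 h and 30 at 48 h. There was 1 library for each condition, so this difference was not tested. As whole lists both were longer at 48 h, with 70833 and then 105769 AML1-ETO peaks, and 28325 and then 30096 ETO2-GLIS2 peaks. Counts were not adjusted for read depth, whose part in the difference was not tested.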

How the results depend on the processing

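Of 72 alternative values for 14 results, 43 stayed within 1.5 times the count or within the interval of the share, and 29 did not. Counts are given as AML1-ETO at 12 and 48 h, then ETO2-GLIS2 at 12 and 48 h. A −log10 q of at least 5 left 67, 108, 29 and 26 peaks at the 4 genes, and at least 10 left 37, 51, 21 and 16. Joining peaks within 1 kb gave 89 and 122 for AML1-ETO and 38 for ETO2-GLIS2 at 48 h, and equal list lengths gave 48 and 58 for AML1-ETO. At 48 h, the share of ETO2-GLIS2 peaks with an AML1-ETO peak was 20% by summits within 200 bp and 82.5% at equal list lengths. The converse share was 4.62% by summits, 3.85% when at least 50% of the peak had to be covered, 16.7% at −log10 q of at least 5 and 41.4% at equal lengths. The share of AML1-ETO 48 h peaks found at 12 h was 25.8%, 20.8%, 44.4% and 62.1% under the same settings, and that of ETO2-GLIS2 was 65.4% at −log10 q of at least 5. Runt matches were near 15.4% of AML1-ETO 48 h summits in 100 bp windows, in 44.2% of whole peaks and near 36.1% at −log10 q of at least 5. With the start of the gene record alone, 13 of the 25 cofactor genes had a summit at 48 h for each protein. The share of all protein-coding genes under that setting was not counted, so this number has no background beside it. The gene body alone, the CCDS span and leaving out exon-outlined peaks changed no count by more than 1.5 times.

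No paired analysis was possible because each condition had 1 ChIP library and no test was made. Peak numbers and widths were not adjusted for read depth, which was not analysed here, and a place without a peak is one where none was called, not one without binding. Fold and rank compare peaks within a list only.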
